A study of Mus musculus with 68 samples.

Results

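The response of NZO/H1LtJ (NZO) mouse embryonic fibroblasts (MEFs) to tunicamycin (TM) was read from 5 RNA-seq libraries of the 68 in the series, all that carry the NZO label among the founder strains: control replicates 2 and 3, and TM replicates 1, 2 and 3. NZO is an inbred, obesity- and diabetes-prone strain and 1 of the 8 founders of the Collaborative Cross, a panel of recombinant mouse lines. The other 63 libraries come from the other 7 founders (35 libraries: 129S1Sv/ImJ, A/J, C57BL/6J, CAST/EiJ, NOD/ShiLtJ, PWK/PhJ and WSB/EiJ) and from F1 crosses of C57BL/6J (B6), of which the 6 libraries of the cross with NZO are used here. Control cells received 0.1% DMSO, the solvent of TM, and treated cells 2 ug/ml TM, both for 4 h. By the study's methods the cells of a strain were pooled from several female embryos of 1 litter, so replicates are cultures of 1 pool, and every p-value below measures the spread between those cultures. No label names an engineered allele. An NZO control replicate 1 is not analysed here. By its methods, the study left out libraries that did not group with their condition.

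TM blocks the first step of N-linked glycosylation, so that proteins entering the endoplasmic reticulum (ER) fail to fold. The unfolded protein response (UPR) then runs through IRE1, which splices the Xbp1 mRNA and degrades other mRNAs at the ER membrane, through ATF6, and through PERK, which slows translation and raises ATF4 and, below it, CHOP (Ddit3). Together these raise chaperones, folding enzymes, the degradation machinery of the ER and genes of amino acid metabolism. In fibroblasts the response also reaches NF-kB and its chemokine targets.

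All 11 fibroblast marker genes in the table, such as collagens, were present in the 5 libraries, with summed levels of 33187 to 39959. The 12 myeloid markers in the table summed to 24.4 to 43.6, the 5 endothelial ones to 7.89 to 11.9, the 4 epithelial ones to 16.4 to 35.2 and the 4 neural ones to 675 to 1280, with TM replicate 3 highest and the others at most at 792. The 3 skeletal muscle markers summed to 108 to 166. Sums of different genes are not compared with each other. The female transcript Xist (32.1 to 143) and the Y-linked Ddx3y (38.1 to 71.8), Eif2s3y, Kdm5d and Uty were all above 0 in each NZO library, although the study describes female embryos. The 5 libraries hold 10710987 to 17629928 reads on genes, within the 7091923 to 21530282 of the 38 founder libraries whose reads could be recovered. A level below is a scaled number of reads per gene, comparable between libraries for 1 gene and not between genes, because the values turned out not to be divided by transcript length.

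The promoters of 6 of the induced genes are shown first, because they carry the elements through which the arms of the response are known to act. They were chosen after the calls were known, as 2 examples for each of 3 elements. The ER stress response element (ERSE, letters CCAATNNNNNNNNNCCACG) is bound by NF-Y and ATF6, the C/EBP-ATF response element (CARE, searched as TTGCATCA) by ATF4 and its partners, and the kB element (searched as GGGANNTTCC) by NF-kB. Each line gives the 250 bases before the first RefSeq start of the gene, 5' to 3', with the element in capitals. The sequence is the C57BL/6J reference (GRCm38.p6, RefSeq), so NZO alleles may differ from it. Hspa5 (chr2:34771840-34772089, plus strand) and Syvn1 (chr19:6046326-6046575, plus strand) hold an ERSE, Herpud1 (chr8:94386179-94386428, plus strand) and Chac1 (chr2:119350992-119351241, plus strand) a CARE, and Cxcl1 (chr5:90890995-90891244, plus strand) and Cxcl2 (chr5:90903649-90903898, plus strand) a kB element.
Hspa5: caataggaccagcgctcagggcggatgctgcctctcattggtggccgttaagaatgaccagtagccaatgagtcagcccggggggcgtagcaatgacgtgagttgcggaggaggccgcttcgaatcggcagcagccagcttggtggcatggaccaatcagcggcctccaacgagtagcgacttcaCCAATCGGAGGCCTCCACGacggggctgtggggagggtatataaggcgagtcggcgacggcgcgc
Syvn1: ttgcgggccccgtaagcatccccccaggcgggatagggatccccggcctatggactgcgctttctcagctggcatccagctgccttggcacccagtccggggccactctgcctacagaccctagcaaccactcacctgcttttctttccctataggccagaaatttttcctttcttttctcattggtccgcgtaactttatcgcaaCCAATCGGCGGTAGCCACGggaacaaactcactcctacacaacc
Herpud1: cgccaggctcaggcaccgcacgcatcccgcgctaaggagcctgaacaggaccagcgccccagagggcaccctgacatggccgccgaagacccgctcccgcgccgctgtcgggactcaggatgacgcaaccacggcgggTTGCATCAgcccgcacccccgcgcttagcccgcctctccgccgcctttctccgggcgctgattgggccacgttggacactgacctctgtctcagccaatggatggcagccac
Chac1: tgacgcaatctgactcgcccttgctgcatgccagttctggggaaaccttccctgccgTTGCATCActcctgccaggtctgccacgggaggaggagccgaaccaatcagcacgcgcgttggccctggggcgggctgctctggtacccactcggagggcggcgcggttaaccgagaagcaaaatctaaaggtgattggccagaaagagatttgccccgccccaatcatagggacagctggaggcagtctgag
Cxcl1: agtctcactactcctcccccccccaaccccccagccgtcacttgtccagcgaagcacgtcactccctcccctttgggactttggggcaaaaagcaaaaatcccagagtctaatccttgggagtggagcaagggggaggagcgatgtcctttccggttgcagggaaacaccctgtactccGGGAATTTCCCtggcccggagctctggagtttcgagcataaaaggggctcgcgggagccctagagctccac
Cxcl2: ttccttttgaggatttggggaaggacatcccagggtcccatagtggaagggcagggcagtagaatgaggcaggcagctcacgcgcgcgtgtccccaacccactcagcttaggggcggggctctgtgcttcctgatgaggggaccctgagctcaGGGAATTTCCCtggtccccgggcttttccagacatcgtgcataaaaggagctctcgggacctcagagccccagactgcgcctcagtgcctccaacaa

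Of the 41 genes induced in the 5 libraries (defined below), 34 matched a RefSeq promoter by symbol. Both strands were searched, for the letters given only. The related element ERSEII, which the study also names, was not searched. A promoter counted without an ERSE may therefore hold an ERSEII in lower case, such as attgggccacg in that of Herpud1. The Herpud1 line also ends in ccaatggatggcagccac, which matches the ERSE letters except the last, where the window ends. A site that runs past the window was not counted. The ERSE was found in 3 of the 34 (Dnajc3, Hspa5 and Syvn1, 8.82%) and in 0.122% of all 27025 promoters of the same length. The CARE was found in 4 (Atf3, Chac1, Fgf21 and Herpud1, 11.8%) and in 0.818% of all promoters. The kB element was found in 3 (Cxcl1, Cxcl2 and Piga, 8.82%) and in 1.17% of all, and the UPR element TGACGTGG, a site for ATF6 and XBP1, in 1 (Tnfaip3, 2.94%) and in 0.503% of all. In Cxcl1 and Cxcl2 the kB letters match on both strands at overlapping positions, which the capitals join into 1 stretch. A match is a description of letters, not of binding.

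Hspa5, Herpud1 and Ddit3, which mark the ER stress response, were induced by TM in NZO fibroblasts, with high levels in all 3 treated libraries. Hspa5, which encodes the ER chaperone BiP and whose promoter holds the ERSE, had levels of 787 and 838 in the controls and 6189, 5711 and 8748 in TM replicates 1 to 3. Herpud1, an ER membrane protein of the degradation machinery, went from 45.5 and 49.6 to 1243, 1267 and 1197, and Ddit3, the transcription factor CHOP, from 26.3 and 29.1 to 467, 430 and 864. The groups lay far apart for each gene, and TM replicate 3 was the highest library for Hspa5 and Ddit3 but the lowest treated one for Herpud1. The fold changes were 8.32 for Hspa5 (log2 3.06 ± 0.20, SE, adjusted p = 0.00536), 25.9 for Herpud1 (log2 4.70 ± 0.11, adjusted p = 0.000143) and 20.1 for Ddit3 (log2 4.33 ± 0.31, adjusted p = 0.00584), all by limma with Benjamini-Hochberg adjustment over 2 control and 3 TM libraries. In such bulk RNA, more cells with a transcript and more of it per cell cannot be told apart.

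A gene was called induced where it was raised at least 1.5 fold at an adjusted p below 0.01, and lowered for the same downwards. With all 5 libraries, 41 of 12820 genes tested were induced (0.32%) and 1 was lowered (0.0078%). Without TM replicate 3, 1289 of 12762 were induced (10.1%) and 947 lowered (7.42%). The TM libraries lay entirely above the controls for 2473 genes (19.3%) and below for 2813 (21.9%) with all 5 libraries, and for 4623 (36.2%) and 5063 (39.7%) without TM replicate 3. TM replicate 3 stood apart from the other treated libraries. Over 10142 genes the SD of the log2 difference was 0.157 between TM replicates 1 and 2, 0.177 between the controls, and 0.584 between TM replicate 3 and the mean of TM replicates 1 and 2. The residual SD of the fit was 0.236 with it and 0.100 without it. Leaving out either control instead gave 0 calls (limma, 1083 and 909 genes at unadjusted p below 0.05), and leaving out TM replicate 1 or 2 left 1 induced gene, Herpud1, in each case, so the 5-library counts rest on few libraries.

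**Figure D1:**
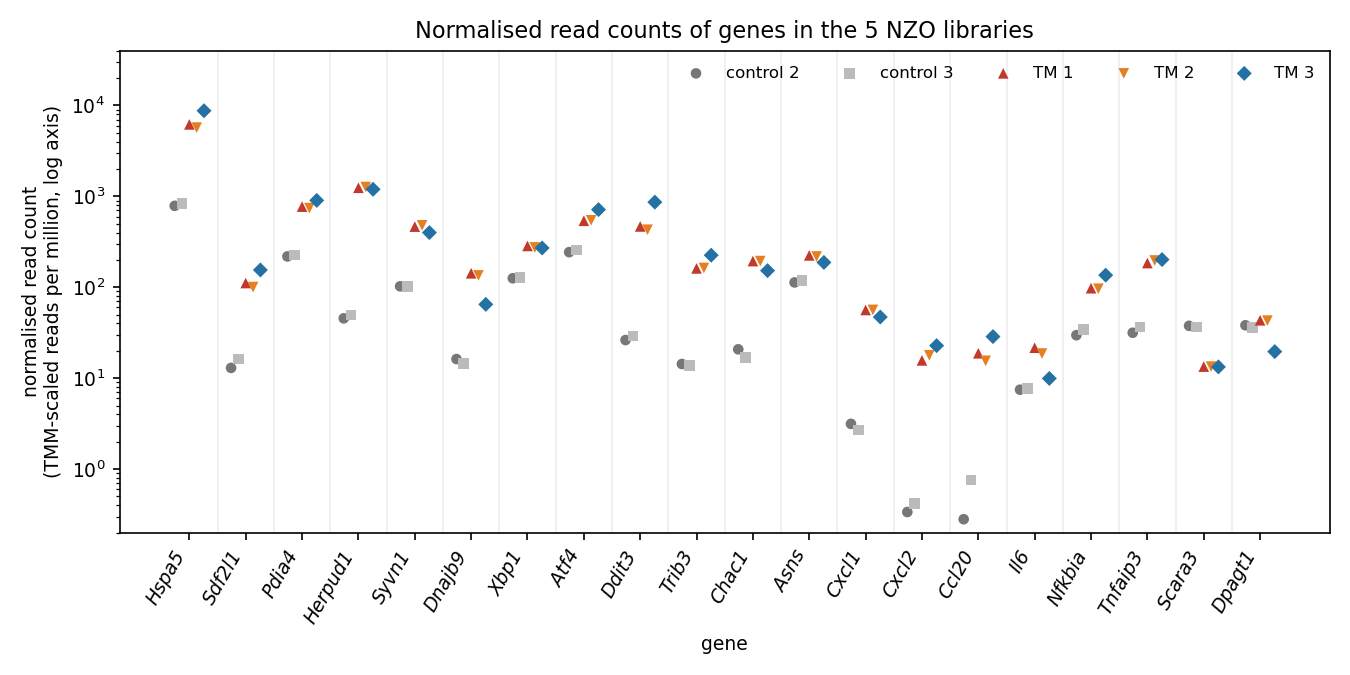
Level of 20 genes in each of the 5 NZO libraries as scaled reads on a logarithmic axis, with grey points for the control libraries and coloured ones for TM (TM replicate 3 in blue). Hspa5 and Ddit3 are highest in TM replicate 3, whereas Dnajb9, Il6 and Dpagt1 are lower there than in TM replicates 1 and 2, and Scara3 lies at 13.3 to 13.4 in all treated libraries.

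The 41 induced genes changed by 2.42 to 39.1 fold, and for all 41 the TM libraries lay above both controls. Those with the smallest changes were Bhlhe40 (a circadian and stress repressor, log2 1.27), Ibtk (1.32), Ifrd1 (2.65 fold), Vldlr (a lipoprotein receptor, log2 1.43) and Siah2 (a ubiquitin ligase, log2 1.45).

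Among ER chaperones and co-chaperones, 3 of the 17 tested were induced with all libraries (Hspa5, Dnajc3 and Sdf2l1), 11 without TM replicate 3, and 12 lay above the controls in every TM library. Sdf2l1, an ER protein that works with BiP and its J-domain partners, had levels of 13.0 and 16.3 in controls and 111, 100 and 155 with TM (8.22 fold, limma adjusted p = 0.00625). Dnajc3, the co-chaperone p58IPK, had 152 and 149 in controls and 440, 428 and 394 with TM (2.79 fold, limma adjusted p = 0.0066). The 2 genes separated the groups completely, Sdf2l1 with its highest level in TM replicate 3 and Dnajc3 with its lowest treated one there. Hsp90b1, the ER HSP90 (834 and 849 against 3267, 3050 and 4519), and Hyou1, a BiP exchange factor (212 and 220 against 765, 768 and 1082), missed the threshold with all libraries at a limma adjusted p of 0.0101 each and passed without TM replicate 3. Their treated levels exceeded both controls in every library, and TM replicate 3 was the highest. Dnajb9, a J-domain partner of BiP and an XBP1 target, moved the other way: 16.2 and 14.5 in controls, 142 and 135 in TM replicates 1 and 2, and 64.9 in TM replicate 3 (log2 2.80 ± 0.36, limma adjusted p = 0.0226, and log2 3.17 without that library). The median log2 ratio of the list to the control mean was 0.75, 0.68 and 1.20 in TM replicates 1 to 3, beside a median of -0.03 over all genes tested.

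Folding oxidases and isomerases showed 2 of 12 induced with all libraries and 6 without TM replicate 3. Pdia4, a disulfide isomerase, rose from 218 and 227 to 771, 743 and 903 (3.60 fold, limma adjusted p = 0.0058), and Ero1lb, an oxidase that recharges the isomerases, from 4.83 and 4.53 to 23.3, 23.1 and 18.4 (4.52 fold, limma adjusted p = 0.00741). Pdia6 missed the threshold with all 5 libraries, with 335 and 370 in controls and 691, 642 and 1198 with TM (limma adjusted p = 0.0905). The treated libraries of Pdia6 lay above the controls, TM replicates 1 and 2 close to each other and TM replicate 3 far above both. In ER-associated degradation, 2 of 20 were induced, Herpud1 and Syvn1, and 7 without TM replicate 3, among them Sel1l, Edem1 and Derl3. Syvn1, the ubiquitin ligase HRD1, had 102 and 102 in controls and 465, 480 and 400 with TM (4.36 fold, limma adjusted p = 0.00428). Sel1l, its partner, had 155 and 144 against 511, 522 and 369, and its limma adjusted p was 0.0168 with all libraries. The list of translocon, glycosylation and export genes had 0 of 38 induced by limma with all libraries (10 higher and 1 lower at unadjusted p below 0.05, 0 by edgeR). Here and in the lists below, edgeR is its quasi-likelihood test, which called only 21 genes induced and 0 lowered over all genes. Its likelihood ratio test called 463 and 193. Without TM replicate 3, 4 of the list were induced, a share close to the 10.1% of all genes induced there. Of the 38, 20 lay above the controls in every TM library.

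Dpagt1, the enzyme that TM inhibits, and Mfsd2a, the transporter that brings TM into cells, did not pass. Dpagt1 had 38.2 and 36.0 in controls and 43.3, 43.0 and 19.6 with TM (log2 -0.16 ± 0.36, limma adjusted p = 0.845). Only TM replicate 3 was below the controls, and without it the change was log2 0.22 (limma adjusted p = 0.0389). Mfsd2a had 26.1 and 26.9 in controls and 51.3, 48.8 and 35.6 with TM (log2 0.75, limma adjusted p = 0.11), and log2 0.91 without TM replicate 3, where it passed.

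Of the UPR sensors and transcription factors, 3 of 14 were induced (Ddit3, Atf3 and Cebpg) and 9 without TM replicate 3. Atf3, a stress repressor of the same basic leucine zipper family, had 3.48 and 3.69 in controls and 36.2, 33.3 and 52.2 with TM (10.8 fold, limma adjusted p = 0.00536). Xbp1, whose mRNA IRE1 splices, had 126 and 128 against 285, 274 and 271, a change of 2.18 fold that missed the threshold narrowly (limma adjusted p = 0.0111). Atf4 had 243 and 256 against 539, 546 and 715 (2.38 fold, limma adjusted p = 0.0226). Both lay above the controls in every treated library and passed without TM replicate 3. Cebpb, a partner of CHOP, split the treated libraries: 39.7 and 49.9 in controls, 23.8 and 23.7 in TM replicates 1 and 2, and 109 in TM replicate 3. It was called lowered without that library (log2 -0.91, limma adjusted p = 8.96e-07) but not after the correction for length and GC described below (limma adjusted p = 0.248).

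In the list of ATF4 and CHOP targets, 4 of 26 were induced (Trib3, Chac1, Vldlr and Fgf21), 20 without TM replicate 3, and 24 lay above the controls in every TM library. The median log2 ratios of this list were 1.12, 1.13 and 1.20 in TM replicates 1 to 3. Trib3, a pseudokinase that restrains ATF4 and CHOP, had 14.3 and 13.8 in controls and 161, 163 and 225 with TM (12.8 fold, log2 3.68 ± 0.18, limma adjusted p = 0.00233). Chac1, which degrades glutathione, had 20.8 and 16.9 against 194, 194 and 152 (9.52 fold, limma adjusted p = 0.00253). Both were separated completely. Fgf21, a metabolic hormone, was read by only 1 read in each control and by 31, 25 and 33 reads with TM, so no fold is given. Slc7a11, the cystine transporter, had 7.18 and 6.71 against 43.2, 47.6 and 22.9, and Asns, asparagine synthetase, 113 and 119 against 224, 218 and 188. Neither passed with all libraries (limma adjusted p = 0.0282 and 0.0351), and both passed without TM replicate 3. Cytosolic tRNA synthetases had 0 of 20 induced by limma with all libraries (13 higher at unadjusted p below 0.05, 0 by edgeR, 14 above the controls in every TM library) and 7 without TM replicate 3, such as Wars, 84.8 and 74.9 against 147, 144 and 145.

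Some genes of inflammation were induced as well. Of 25 chemokines, cytokines and inflammatory effectors tested, 6 were induced (Cxcl1, Cxcl2, Ccl7, Ccl20, Lif and Csf2), 19 without TM replicate 3, and 22 lay above the controls in every TM library. The list medians were log2 1.49, 1.50 and 1.60 in the TM replicates. Cxcl1, a neutrophil chemokine with the kB element in its promoter, had 3.14 and 2.69 in controls and 56.2, 56.4 and 47.1 with TM (17.7 fold, log2 4.14 ± 0.16, limma adjusted p = 0.00141). Cxcl2, its neighbour and close relative, had 0.337 and 0.42 (6 and 5 reads) against 15.7, 17.8 and 22.8 (172, 193 and 264 reads), 39.1 fold (log2 5.29 ± 0.24, limma adjusted p = 0.00157). The control levels of Cxcl2 are low, and its groups lay far apart. Ccl20 (5 and 9 reads in controls, 206, 168 and 332 with TM) changed by log2 5.16 (limma adjusted p = 0.00764). Lif, a cytokine of the IL-6 family, had 85.1 and 95.0 against 582, 598 and 602 (6.60 fold, limma adjusted p = 0.00141), with the 3 treated libraries nearly equal. Csf2, a myeloid growth factor, had 1 and 0 reads in the controls and 36, 37 and 38 with TM, so no fold is given.

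Several inflammatory genes depended on TM replicate 3. Il6 had 7.47 and 7.64 in controls and 21.6, 18.7 and 9.93 with TM (log2 1.06 ± 0.34, limma adjusted p = 0.163), and without that library 2.64 fold (limma adjusted p = 9.41e-08). Ccl2, a monocyte chemokine, had 36.1 and 35.2 against 241, 214 and 106, and Ptgs2, cyclooxygenase 2, 2463 and 2588 against 5941, 6013 and 2905. For each of the 3 genes TM replicate 3 was above the controls but the lowest treated library. Of 14 NF-kB subunits and inhibitors, 1 was induced with all libraries (Tnfaip3) and 10 without TM replicate 3. Tnfaip3, the ubiquitin-editing inhibitor A20, had 31.6 and 36.7 in controls and 185, 197 and 202 with TM (5.70 fold, limma adjusted p = 0.00233). Nfkbia, the inhibitor of NF-kB, had 29.7 and 34.2 against 97.6, 96.4 and 136 (3.40 fold, limma adjusted p = 0.0154), and Relb 24.1 and 22.9 against 68.9, 65.7 and 86.6 (limma adjusted p = 0.0125). Their treated libraries all lay above the controls. The 12 interferon-stimulated genes had 0 called by limma with all libraries (2 higher and 1 lower at unadjusted p below 0.05, 0 by edgeR). Ifih1 was induced and Stat2 lowered without TM replicate 3, and 0 of the list were induced after the length and GC correction.

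Of 23 immediate early genes, 1 was induced with all libraries (Myc) and 12 without TM replicate 3, with Jund lowered. Myc, a growth regulator, had 127 and 127 in controls and 359, 374 and 372 with TM (2.89 fold, limma adjusted p = 0.0058). Egr1 had 156 and 125 against 483, 520 and 225 (limma adjusted p = 0.11), and again the third treated library was the lowest. Among p53 targets and growth arrest genes, Gadd45a, a stress-responsive growth arrest gene, was the 1 of 13 induced, with 4.55 and 4.20 in controls and 58.9, 52.7 and 107 with TM (15.5 fold, limma adjusted p = 0.00741). Without TM replicate 3, 7 of the 13 were induced (Mdm2, Plk2, Plk3, Btg2, Gadd45a, Gadd45b and Trp53inp1) and Phlda3 was lowered. Cdkn1a, which encodes the cell cycle inhibitor p21, had 239 and 251 against 221, 226 and 339 and did not pass in either fit (limma adjusted p = 0.889 with all libraries). Pmaip1, a BH3-only death gene, was the 1 induced among the 12 BCL2 family genes without TM replicate 3 (52.99 and 58.5 against 87.6, 97.8 and 104), a share below the 10.1% of all genes, and 3 of the list were lowered. After the length and GC correction Pmaip1 was not called, while Bbc3 was the 1 of the 12 induced, beside 4.52% of all genes, and 0 were lowered. Of 7 snoRNA host and other noncoding RNAs, Snhg12 was induced with all libraries, from 22.5 and 22.0 to 81.5, 75.3 and 93.1 (3.72 fold, limma adjusted p = 0.00625), and 4 without TM replicate 3.

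The single lowered gene with all libraries was Scara3, a scavenger receptor and a known substrate of IRE1-dependent mRNA decay, with 37.7 and 36.5 in controls and 13.4, 13.4 and 13.3 with TM (log2 -1.47 ± 0.13, limma adjusted p = 0.0091). The 3 treated libraries were nearly equal. Of the 6 decay targets tested, 5 lay below the controls in every TM library, 1 was called lowered with all libraries and 3 without TM replicate 3 (Scara3, Hgsnat and Bloc1s1). Hgsnat, a lysosomal acetyltransferase, had 43.8 and 43.8 against 28.4, 28.1 and 25.6 (limma adjusted p = 0.0575). Bloc1s1, a lysosome-positioning subunit and the best known decay target, had 16.1 and 22.7 against 10.2, 8.87 and 26.3, so TM replicate 3 was above both controls. It was called lowered without TM replicate 3, at 0.501 of the control level, but not after the length and GC correction (limma adjusted p = 0.321).

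Counts for the other groups stand beside 10.1% of all genes induced and 7.42% lowered without TM replicate 3. Matrix genes of fibroblasts had 0 of 21 called in either fit by limma (2 lower at unadjusted p below 0.05 with all libraries, 0 by edgeR). Their list medians were log2 -0.27, -0.22 and -0.13 in the TM replicates. Of the 21, 5 lay below the controls in every TM library, a share close to the 21.9% of all genes tested. Genes of replication and mitosis had 0 of 24 called by limma with all libraries (1 higher and 2 lower unadjusted, 0 by edgeR) and 1 without TM replicate 3 (Ccne2). The cytosolic heat shock list had 0 of 14 called by limma with all libraries (1 higher and 5 lower unadjusted, 0 by edgeR) and 3 lowered without TM replicate 3, such as Hspa1a, an HSP70 gene of the heat shock response, with 15.4 and 13.8 in controls and 6.20, 5.73 and 8.98 with TM. Hspa1a and Hspa1b are near-identical, so reads may be split between them. Respiratory chain subunits had 0 of 19 called by limma with all libraries (1 higher and 4 lower unadjusted, 0 by edgeR) and 4 lowered without TM replicate 3, with medians of log2 -0.37 and -0.38 in TM replicates 1 and 2 against 0.0033 in TM replicate 3.

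The response of TM replicate 3 was also read from genes chosen without NZO. In the other 7 founders, each fitted on its own libraries, 190 genes were induced in 4 or more strains, a list that uses no NZO library. Their median log2 ratio to the NZO control mean was 1.38, 1.38 and 1.30 in TM replicates 1 to 3. TM replicate 3 lay above both NZO controls for 187 of the 190 (98.4%), beside 41.2% of all genes tested. With all 5 libraries 39 of the 190 were called induced, and without TM replicate 3, 187. For the 142 genes lowered in 3 or more other strains the medians were -0.72, -0.59 and -0.89, and TM replicate 3 lay below both controls for 141, beside 45.6% of all genes. The 3 treated libraries thus had medians of 1 sign in each list.

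**Figure D2:**
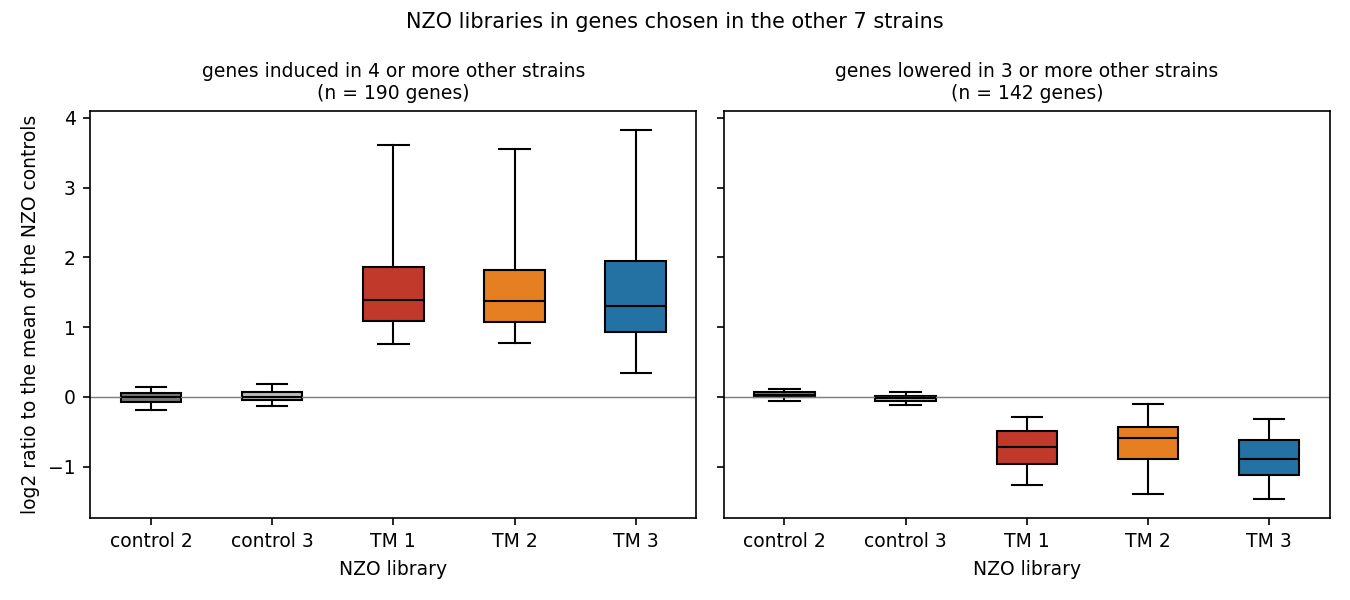
Log2 ratio to the mean of the NZO controls for 190 genes induced and 142 genes lowered in other strains, 1 box per NZO library (box, quartiles with median; whiskers, 5th to 95th percentile). Median ratios of the induced list are 1.38, 1.38 and 1.30 in TM replicates 1 to 3, and of the lowered list -0.72, -0.59 and -0.89.

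Of the 41 induced genes, 19 were induced in all 7 other strains, 11 in 6, 7 in 5, 2 in 4 (Ifrd1 and Vldlr), 2 in 3 (Car6 and Serpinb2) and 0 in fewer, by the same limma threshold in each strain. Of the 1289 called without TM replicate 3, 561 were induced in no other strain. The number induced in each of those strains was 40 in 129S1Sv/ImJ (0.315%), 44 in A/J (0.346%), 185 in NOD/ShiLtJ (1.45%), 318 in CAST/EiJ (2.54%), 361 in WSB/EiJ (2.85%), 639 in B6 (5.04%) and 810 in PWK/PhJ (6.36%). The number lowered was 1 in 129S1Sv/ImJ (0.00787%), 1 in A/J (0.00786%), 21 in NOD/ShiLtJ (0.165%), 60 in CAST/EiJ (0.478%), 532 in WSB/EiJ (4.2%), 408 in B6 (3.22%) and 548 in PWK/PhJ (4.3%). The NZO count of induced genes lay at the low end of these with TM replicate 3 and above them without it. These calls depend on the spread within each strain. The residual SD was 0.100 in NZO without TM replicate 3, and from 0.105 in B6 to 0.350 in A/J in the others. The 561 are thus not shown to respond in NZO alone. In the test of the difference itself without TM replicate 3, given below, 0 genes differed.

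The difference between TM replicate 3 and the other treated libraries was graded by transcript length and base composition. In TM replicates 1 and 2 the median log2 ratio to the controls ran from -0.39 and -0.46 in the decile of genes with the shortest transcripts to 0.21 and 0.27 in the longest decile, and in TM replicate 3 from 0.11 to -0.29. From the lowest to the highest decile of GC content it ran from 0.56 to -0.47 in both TM replicates 1 and 2 and from -0.0024 to -0.0645 in TM replicate 3. The long-minus-short difference was 0.60 and 0.73 in TM replicates 1 and 2 and -0.39 in TM replicate 3. The 19 TM libraries of the other strains ran from -1.25 to 0.69, which holds TM replicates 1 and 3 of NZO and lies below TM replicate 2, and their low-minus-high GC differences ran from 0.02 to 1.09. Genes called without TM replicate 3 had the same grading: the median length was 4225 bases for induced and 1867.5 for lowered genes, beside 3221.5 for all tested, and the median GC content 43.2% and 57.1%, beside 50.2%. The 41 genes induced with all libraries had a median length of 2338 bases and a GC content of 49.4%.

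**Figure D3:**
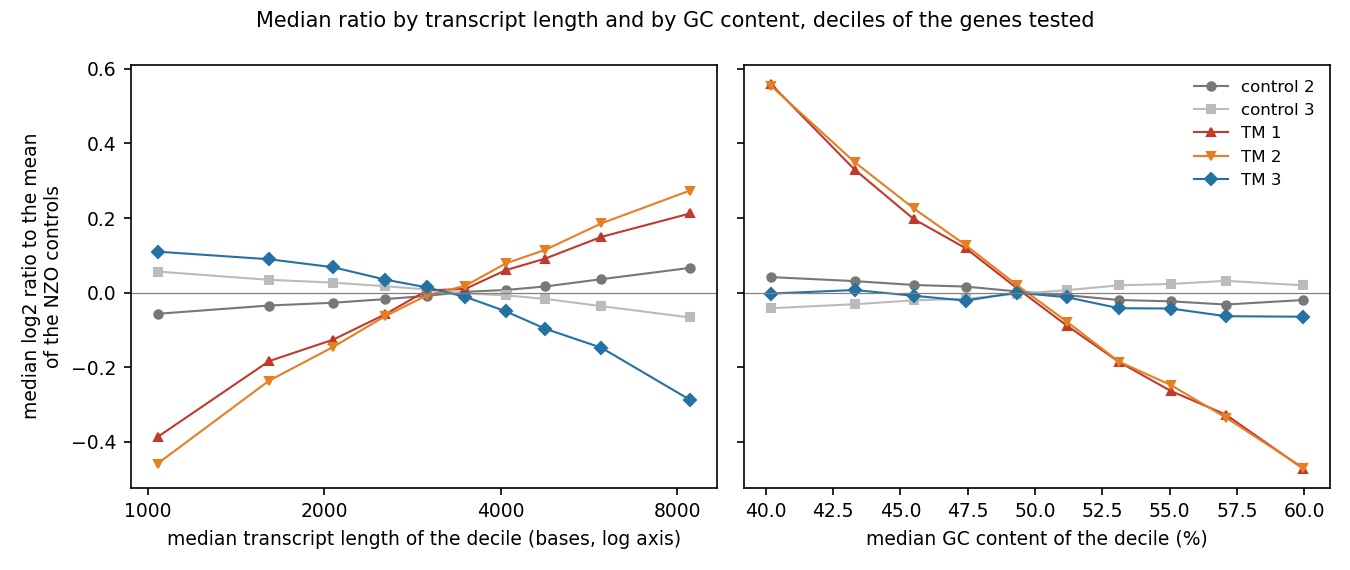
Median log2 ratio to the mean of the NZO controls in deciles of transcript length (left) and GC content (right), 1 line per library. TM replicates 1 and 2 rise with length and fall with GC content, whereas TM replicate 3 falls with length and is nearly flat with GC content.

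After a correction of each library for length and GC content, chosen after this grading was seen, 125 of 12660 genes were induced with all libraries (0.987%) and 570 of 12604 without TM replicate 3 (4.52%), while 6 (0.0474%) and 385 (3.05%) were lowered. Of the 41 induced genes, 38 were also among the 125. Of those called without TM replicate 3, 476 of the 1289 induced genes (36.9%) and 232 of the 947 lowered ones (24.5%) were still called in that fit after the correction. The corrected counts for the 190 genes of the other strains were 96 of 185 with all libraries and 174 of 185 without TM replicate 3. Without TM replicate 3 and with the correction, 10 of 17 ER chaperones were induced, 6 of 12 folding oxidases and isomerases and 6 of 20 genes of ER-associated degradation. The counts were 8 of 14 UPR factors, 21 of 26 ATF4 and CHOP targets and 11 of 14 NF-kB genes. They were 20 of 25 chemokines and effectors and 15 of 23 immediate early genes. Some lists lost more calls: 5 of 20 tRNA synthetases and 5 of 13 p53 targets were induced, against 7 and 7 before the correction. Of 38 translocon, glycosylation and export genes, 1 was induced, against 4 before it, and 2 were lowered (Sec61g and Dad1). In the same fit 2 heat shock genes, 2 respiratory subunits and 2 IRE1 decay targets were lowered. The calls for Hspa5 (limma adjusted p = 0.00356), Herpud1, Ddit3, Trib3 and Cxcl1 held with all 5 libraries, and Dnajb9 (0.00526) and Atf4 (0.00143) were now called. The length and GC gradients move with the same libraries as the calls, and their part in the responses of single genes was not tested beyond this correction.

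**Figure D4:**
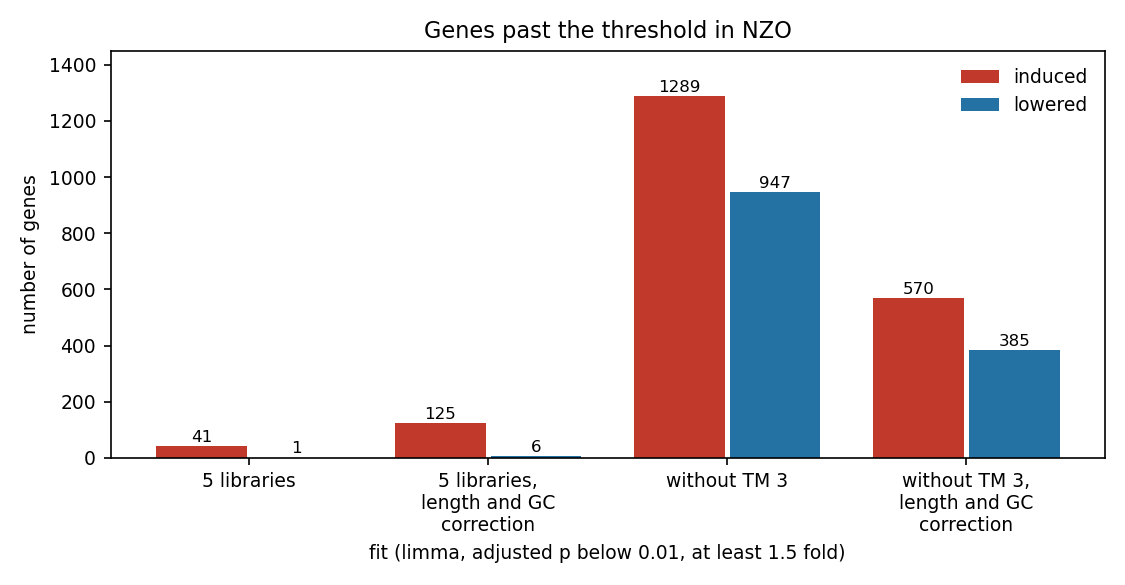
Number of genes induced and lowered by TM in NZO under 4 fits, with and without TM replicate 3 and with and without the correction for length and GC content. Induced genes number 41 and 1289 without the correction and 125 and 570 with it.

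The genes that differed most between TM replicate 3 and the other treated libraries, among those with a mean level of at least 10, included Klk14, Zfhx4 and Tmsb10, each chosen for that difference and described without a test. Klk14, a secreted serine protease, had 7.13 and 5.54 in controls, 3.56 and 1.57 in TM replicates 1 and 2 and 281 in TM replicate 3. Over the 35 other founder libraries Klk14 ran from 1.81 to 289, with 4 above 100. These were an A/J control (control replicate 1, 289) and TM replicate 3 of A/J (173), NOD/ShiLtJ (205) and WSB/EiJ (176). Zfhx4, a large transcription factor, fell to 5.70 in TM replicate 3 from 31.2 and 31.6 in TM replicates 1 and 2 (29.7 and 22.0 in controls), while Tmsb10, a small actin-binding peptide, had 418 and 457 in controls, 125 and 90.7 in TM replicates 1 and 2, and 509 in TM replicate 3. For strain-informative genes, TM replicate 3 was nearer to the NZO controls than to another strain's in 291 of 300 gene-strain pairs (97.0%), and TM replicates 1 and 2 in 292 and 291. The deviations of TM replicate 3 from its group, set against those of the A/J control 1 library from its own, correlated at r = 0.80 over 12088 genes, the highest of the 35 libraries of other strains, as a description across genes that share length and base composition. For TM replicate 3 of the other strains, r was 0.58 in WSB/EiJ, 0.38 in NOD/ShiLtJ, 0.32 in A/J, 0.28 in PWK/PhJ, 0.16 in CAST/EiJ, 0.07 in B6 and -0.52 in 129S1Sv/ImJ. The TM libraries of these strains with other numbers ran from -0.66 (TM replicate 1 of A/J) to 0.48 (TM replicate 1 of 129S1Sv/ImJ). In CAST/EiJ and B6, with 2 TM libraries each, the deviations of the pair are opposite by construction.

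The NZO response was then tested against the mean response of the other 7 founders in 1 limma fit over the 40 founder libraries. Of 13197 genes, 0 differed at an adjusted p below 0.01 (266 at unadjusted p below 0.05, 130 higher and 136 lower), and edgeR's quasi-likelihood test on the recovered reads gave 0 as well (253 unadjusted). The limma count without TM replicate 3 was also 0 (559 unadjusted). The missing calls do not show that the strains respond alike. Hspa5, for example, differed from the other strains' mean by log2 0.27 ± 0.20 (SE), and Ddit3 by 0.49 ± 0.28. Among the 16 genes other than Trib3 that are named in every comparison, these 2 included, the differences ran from -0.31 to 0.49.

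Trib3 had the smallest p. Its change in NZO exceeded the mean of the other strains by log2 1.06 ± 0.19 (limma adjusted p = 0.0455 over all genes), which is above the 0.01 used for calls. In the controls Trib3 had 13.8 to 14.3 in NZO and 11.3 to 12.6 in 129S1Sv/ImJ, against 24.2 to 56.6 in the other 6 strains, while with TM it had 161 to 225 in NZO and 138 to 261 elsewhere. The log2 changes were 3.85 in 129S1Sv/ImJ, 3.68 in NZO, 2.84 in A/J, 2.67 in WSB/EiJ, 2.46 in PWK/PhJ, 2.29 in NOD/ShiLtJ, 2.23 in CAST/EiJ and 1.94 in B6. The control levels of NZO and 129S1Sv/ImJ did not overlap with those of the other strains, whereas the treated levels did. The difference without TM replicate 3 was log2 0.91 (limma adjusted p = 0.28), and with the length and GC correction it was 1.15 (limma adjusted p = 5.4e-06), the 1 gene called there (0.00768%). Over 16 alternatives the difference ran from 0.91 to 1.21, with an adjusted p from 5.4e-06 to 1.00, below 0.01 in 2 of them.

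**Figure D5:**
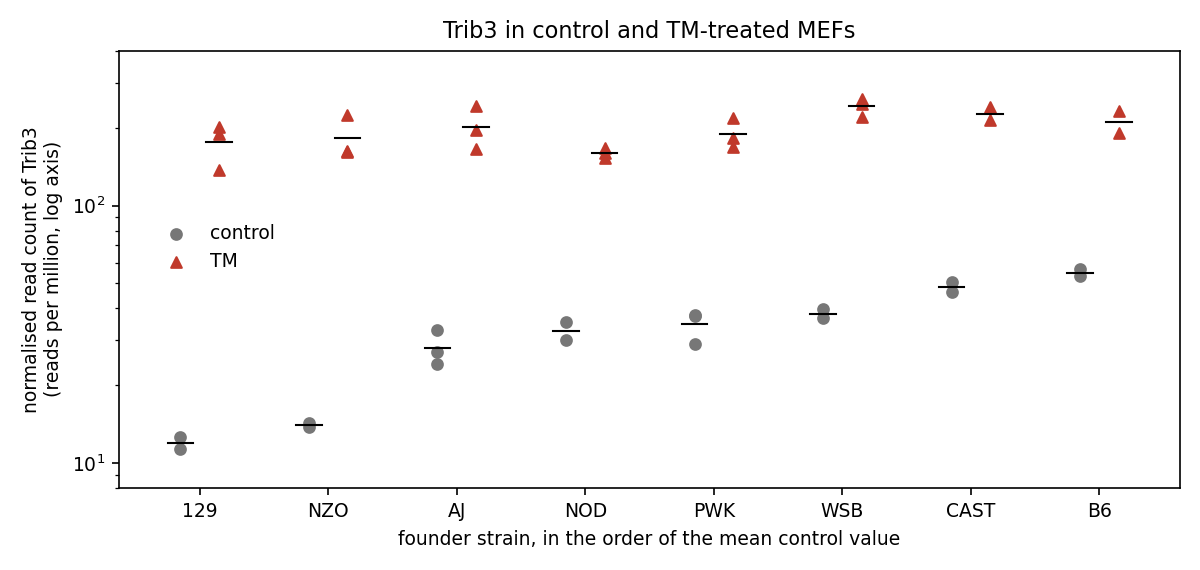
Level of Trib3 in every founder library (points) with the mean of each group (bars), by strain and treatment, in scaled reads. NZO and 129S1Sv/ImJ controls lie at or below 14.3 and those of the other 6 strains at or above 24.2, while the TM libraries overlap between strains.

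Serpinb2, a protease inhibitor of stressed and inflamed cells, came next among the induced genes (log2 0.74 above the other strains' mean, limma adjusted p = 0.406), and Tnfaip3 differed by log2 0.63. Neither passed, and neither response was the largest of the strains: in PWK/PhJ the log2 changes were 1.79 for Serpinb2 and 2.64 for Tnfaip3, beside 1.72 and 2.51 in NZO. Acot2, also induced, and Zfp420, not called with all libraries, had a smaller p than Tnfaip3 and did not pass either. For both the NZO change was the largest of the strains. It was log2 2.47 for Acot2, beside 2.25 in PWK/PhJ, and 2.00 for Zfp420, beside 1.50 in A/J.

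In the cross of B6 and NZO, whose table was scaled separately and is compared only within itself, 180 of 12516 genes were induced (1.44%) and 19 lowered (0.152%) over 3 control and 3 TM libraries. The count of induced genes ran from 42 (without TM replicate 3) to 300 (without control replicate 3) when 1 library was left out. All 41 NZO genes were tested and raised there, and 36 were called induced, which is 87.8% of the 41 and 20.0% of the 180. The 5 not called were Csf2, Cxcl16, Napb, Slc2a6 and Serpinb2. The median log2 change of the 41 was 2.44 in NZO and 1.87 in the cross, values from separate tables and, in NZO, from the libraries that chose them. Herpud1 changed by log2 4.40 in the cross (limma adjusted p = 7.67e-07) and Hspa5 by 3.02 (1.59e-05). Cxcl1 changed by 2.90 and Cxcl2 by 4.31, both called, beside 4.14 and 5.29 in NZO. Dnajb9 changed by 2.78 (limma adjusted p = 5.73e-05) and Atf4 by 1.18 (0.00152), both passing there. Scara3 changed by log2 -1.58 (limma adjusted p = 0.00557), and Il6 by 0.51 without passing (limma adjusted p = 0.323).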

How the data were processed

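mRNA of MEFs was sequenced as TruSeq libraries (single-end). By the study's methods and the submitters' processing notes, the authors aligned reads with TopHat 1.4.1 to strain-adjusted mouse genomes (GRCm38, mm10), counted them per gene, scaled them by TMM in edgeR, and left out libraries that did not cluster with their condition. The deposited founder values, labelled FPKM, are a scaled signal: in 38 of 40 founder libraries each is a whole multiple of 1 step (tolerance 0.05), from which read counts were recovered. They were not divided by length. The founder and the cross tables were scaled separately.

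Genes that reached 0.5 in 2 or more of the fitted libraries were tested on log2(value + 0.1) with limma 3.58.1 (eBayes with trend, Benjamini-Hochberg) in R 4.3.3, called at an adjusted p below 0.01 and 1.5 fold. Fold changes are on this scale, which understates those of low genes. The contrast with other strains used all 40 founder libraries and no fold threshold. edgeR 4.0.16, Python 3.11.15, pandas 2.3.3 and matplotlib 3.10.9 were also used. The fits were tested on simulated data. Alternatives covered the pseudocount, the filter, scaling, the variance trend, edgeR on recovered reads, array weights, the replicate block and leaving out each library. The 5 libraries hold 10710987 to 17629928 reads on genes, so counting error is small except for genes of few reads. The length and GC correction, the calculations in the cross and the lists with other numbers of strains were chosen after seeing the data. Of the founder genes, 174 had no name. The other crosses were not used here.

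Named genes were 17 ER stress genes and related ones in every comparison, the 10 with the largest and smallest changes past the threshold, the 10 with the smallest p against the other strains, the 10 that deviate most in TM replicate 3, and in each list up to 4 members of highest level and any past the threshold. Others were named after their values were seen. The members and lists were chosen with earlier results of these data known. Length and GC content were found for 98.8% of the genes tested. Promoters are from RefSeq (GRCm38.p6). Some list members are not reported here.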

Additional observations from a re-analysis of the deposited data

Results flagged for a closer look

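The Trib3 response of NZO differed from the mean of the other 7 strains by a limma adjusted p of 0.0455 over all genes tested, and of 5.4e-06 after the correction for length and GC content. For 3 further genes all TM libraries of NZO lay on 1 side of the NZO controls and all those of another strain on the opposite side of their own, a difference of directions that was not tested. Only named genes were searched, not all genes. Slc39a5 and Ntrk3 were named for their small p against the other strains, and Naip5 for its fall without TM replicate 3. Their choice thus favoured such differences. The NZO groups also lay fully apart for many genes, with TM above for 19.3% of those tested and below for 21.9%. Each has few reads. Naip5, an inflammasome sensor, was lower with TM in NZO and higher in CAST/EiJ (log2 -0.61 for NZO against the mean of the other strains), with 18 and 12 reads in the NZO controls and 2, 1 and 11 with TM. Slc39a5, a zinc transporter, was lower in NZO and higher in B6 (log2 -1.95 against the mean), with 19 and 13 reads in the controls and 2 in each TM library. Ntrk3, a neurotrophin receptor, was higher in NZO and lower in B6 (log2 2.32 against the mean), with 2 reads in each control and 7, 9 and 6 with TM. Groups of 2 and 3 libraries are too small for a search for single outlying libraries.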

How the results depend on the processing

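With all 5 libraries, the counts of induced and lowered genes (41 and 1) became 10 and 0 without a trend in the prior variance, 449 and 143 in 1 fit over the founder libraries, 21 and 0 by edgeR's quasi-likelihood test, 463 and 193 by its likelihood ratio test, 125 and 6 with the length and GC correction, 1362 and 1130 with array weights (weights not fully converged; TM replicate 3 had 0.0774), and 256 and 53 at an FDR of 5%. Leaving out 1 library at a time gave 0 to 1289 induced and 0 to 947 lowered. Without TM replicate 3 (1289 and 947), they became 336 and 124 without the trend, 554 and 180 in 1 fit over the founder libraries, and 570 and 385 with the correction, and 1121 to 1472 and 733 to 1066 when a further library was left out. Against the other strains, 1 gene was higher with the correction, 1 with the correction and without TM replicate 3, and 1 at an FDR of 5%. In the cross (180 and 19), 12 were lowered with the correction, and leaving out 1 library gave 42 to 300 induced and 0 to 84 lowered.

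No label ties same-numbered libraries to a shared day or batch, and the check of their deviations did not show pairing across strains, so the block is given only here: the deviations of the 2 NZO pairs correlated at 0.27 and 0.28, and 5 of 16 founder pairs exceeded 0.1 (-0.60 to 0.42). With the replicate number as a block, 153 were induced and 24 lowered with all 5 NZO libraries, 186 and 23 with the block and the correction, and 72 and 1 in the cross. TM replicate 1 of NZO has no control of its number, so the NZO effects in the block fits rest on the 2 NZO pairs. No paired analysis was possible for the fit without TM replicate 3 because no residual degrees of freedom remained. Of 557 values of named genes under alternatives in the 5-library comparison, 121 lost the call, 42 gained it, 2 reversed and the others kept direction and side of the threshold. Dpagt1 (-0.16) changed by log2 0.21 with array weights, and by -0.35 to 0.22 when 1 library was left out (0.22 without TM replicate 3). For the list of other strains' induced genes, the median of TM replicate 3 minus that of the others was -0.174 with 2 or more strains and -0.0282 with 6 or more, beside -0.0739. A lone sample left in a group is assumed to vary like the other group. Depth limits Csf2, Fgf21, Ntrk3 and Cxcl2, whose controls hold 0 to 6 reads. The causes were not tested.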

Other observations

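Several lists outside the ER stress pathways held genes called without TM replicate 3 that were not called with it. In that fit 10.1% of all genes were induced and 7.42% lowered. The share induced was 11.1% in glucose uptake and glycolysis, near that of all genes, and 5.56% in cholesterol synthesis. The calls below are thus descriptions of single genes, not results about their lists. In glucose uptake and glycolysis, 0 of 18 were called by limma with all libraries (2 higher and 4 lower at unadjusted p below 0.05, 0 by edgeR), and without TM replicate 3 Hk2 and Vegfa were induced and Tpi1 and Slc16a3 lowered. Hk2, a hexokinase, had 153 and 164 in controls and 239, 240 and 316 with TM, all above the controls. Among cholesterol genes, Stard4 was induced and Dhcr7 and Mvk lowered. Mvk, mevalonate kinase, had 51.6 and 56.4 against 31.4, 30.4 and 61.1, so TM replicate 3 lay on the other side of the controls. Of 13 NRF2 antioxidant genes Ftl1 was lowered (3795 and 4256 against 2457, 2540 and 3063). After the length and GC correction Hk2, Vegfa and Dhcr7 were still called in the fit without TM replicate 3, while Tpi1, Slc16a3, Stard4, Mvk and Ftl1 were not. In the BCL2 family Bak1, Bok and Bad were lowered, and none of the 3 was called after the length and GC correction.

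Xist, which marks the inactive X chromosome, and Y-linked genes also differed between libraries. Xist had 88.2 and 65.7 in controls and 126, 143 and 32.1 with TM, and Ddx3y 38.3 and 38.1 against 71.8, 69.5 and 40.2. Without TM replicate 3, 4 of the 5 genes of this list were called induced (Xist, Ddx3y, Kdm5d and Uty), and none of them after the length and GC correction. The gene with the largest fall without TM replicate 3, Cfd, had 109 and 8 reads in the controls and 0, 0 and 1 with TM, so the controls themselves were far apart. Of the fibroblast markers, Thy1 and S100a4 were called lowered without TM replicate 3 and not with the correction. Thy1 had 257 and 260 against 170, 167 and 162, and S100a4 838 and 994 against 564, 507 and 1197.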
